A study of Mus musculus with 6 samples.

Results

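Collagens, laminins and other genes of the extracellular matrix were followed in central retina taken from rd1/rd1 mice aged 2 and 8 months. The members were chosen by gene symbol, with earlier results of these data known. The rule took every array probe whose single annotated symbol names a collagen or a laminin chain, or 1 of a set of matrix genes. This set was Lum, Dcn, Bgn, Fn1, Fbln1, Sparc, Postn, Lox, Nid1, Nid2, Hspg2, Timp2, Timp3, Mmp2 and Mmp14. The rule found 65 genes with 145 probes among 19057 named genes, and 45 of the 65, among 12046 genes in all, passed a filter on dim probes and could be tested. Fbn1 was not analysed here. Both ages carried the same rd1/rd1 genotype and received no treatment, so that age was the only labelled difference, with 3 samples per age. The rd1 allele inactivates the rod phosphodiesterase subunit Pde6b, and rods and then cones are lost. Each sample was a pool of 3 to 6 tissue punches of 1.5 mm, and the design text calls the samples of an age independent without giving the animals in each, so p-values measure the spread between these pools. RNA was measured on single-colour Illumina bead arrays, and values are given on the deposited log2 scale. There is no unaffected retina in the series, so every comparison is between 2 ages of degenerated retina.

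The matrix of the eye has distinct layers. Basement membranes are thin sheets of type IV collagen and laminin networks, joined by nidogens and the proteoglycan perlecan; in the retina they line the vitreal surface and the vessels, and they form part of Bruch's membrane under the pigment epithelium. Fibrillar collagens form the stiff fibres of sclera and choroid and, as types II, V and XI, the fine fibrils of the vitreous and of cartilage. Small proteoglycans such as decorin and lumican coat these fibres, and metalloproteinases and their inhibitors, the Timp proteins, turn the matrix over.

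The stretches of 250 bases before the annotated start are shown for 4 members on which the results below turn: Col8a2 and Col8a1, the chains of the short-chain collagen VIII, which shared their lowest and highest samples; Sparc, a collagen-binding glycoprotein; and Col17a1, a transmembrane collagen, which had the smallest p of all members. The sequences are RefSeq's, build GRCm38.p6, on the strand of the gene and from 5′ to 3′, and no other annotated gene overlaps them. They lie at chr4:126286544-126286793 (plus strand), chr16:57754738-57754987 (minus), chr11:55420081-55420330 (minus) and chr19:47692043-47692292 (minus). Capitals mark matches to the GC box GGGCGG or the TATA box TATAAA on either strand.
Col8a2: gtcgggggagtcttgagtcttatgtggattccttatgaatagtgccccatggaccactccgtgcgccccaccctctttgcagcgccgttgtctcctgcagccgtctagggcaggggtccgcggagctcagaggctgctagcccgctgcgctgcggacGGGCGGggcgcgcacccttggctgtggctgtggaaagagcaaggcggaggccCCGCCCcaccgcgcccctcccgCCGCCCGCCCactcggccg
Col8a1: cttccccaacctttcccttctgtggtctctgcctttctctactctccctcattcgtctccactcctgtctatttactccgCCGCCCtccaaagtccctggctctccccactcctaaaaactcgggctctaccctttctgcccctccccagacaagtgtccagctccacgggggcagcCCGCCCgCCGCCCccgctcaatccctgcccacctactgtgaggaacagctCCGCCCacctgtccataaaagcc
Sparc: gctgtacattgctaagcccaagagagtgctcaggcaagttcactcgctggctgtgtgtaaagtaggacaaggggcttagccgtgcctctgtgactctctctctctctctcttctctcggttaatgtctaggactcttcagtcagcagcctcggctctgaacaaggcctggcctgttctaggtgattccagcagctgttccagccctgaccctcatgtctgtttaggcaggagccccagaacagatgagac
Col17a1: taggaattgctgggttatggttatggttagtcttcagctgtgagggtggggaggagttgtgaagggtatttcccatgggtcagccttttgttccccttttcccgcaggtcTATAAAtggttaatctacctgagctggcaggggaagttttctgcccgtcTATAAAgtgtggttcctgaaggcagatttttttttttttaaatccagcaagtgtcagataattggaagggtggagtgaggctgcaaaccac

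Col8a2 and Col8a1 each held 4 GC box matches, of which the last 2 of Col8a2 overlap each other, while Sparc held none of the motifs searched and Col17a1 held 2 TATA box matches. The windows of Col8a2 and Col8a1 were 70% and 60.8% G or C, against 54% for Sparc, 46% for Col17a1 and a median of 52% over all genes. A window was at hand for 33 of the 45 tested members. A GC box stood in 23 of these 33, or 69.7%, against 32.9% of the windows of 27025 genes, and a TATA box in 2 (6.1%, against 13% of all). The E-box CATGTG, a form bound by Mitf, the transcription factor of pigment cells, stood in 2 (6.1%, against 12.2%), Col11a2 and Col24a1, and in none of the 4 windows shown. The comparison set was every annotated gene with a window, whether or not it passed the filter on the array. The members had all passed it, so these differences cannot be read as traits of matrix genes. Motif matches are matches of letters and not shown to be binding sites.

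The tissue carried the RNA of an inner retina with Müller glia. Slc1a3, a Müller glia gene, lay between 12.7 and 13.1 in all 6 samples. Rlbp1, made by Müller glia and also by pigment epithelium, lay between 12.4 and 12.9. Slc32a1, the vesicular transporter of inhibitory neurons, lay between 12.9 and 13.1. Not all listed neuron and Müller glia or astrocyte markers were bright: Pax6 lay between 7.46 and 7.59 and S100b between 7.24 and 7.33. Snap25, Nefl and Pax2 did not pass the filter. Among cone genes, Arr3 fell by 1.55 (SE 0.127, limma adjusted p = 0.00936) and Gnat2 fell by 0.86 (SE 0.0818, limma adjusted p = 0.0169) on the log2 scale. The values of the samples were on 1 common scale, with an array median of 7.19, and probes near it lie close to background, where differences are compressed.

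Markers of neighbouring tissues differed between samples. Their part in the results on matrix genes was not tested, beyond fits given below with the pigment or the muscle level as a covariate. The 14 tested of 15 pigment epithelium and melanocyte markers averaged −0.04, 0.56 and 0.12 relative to each gene's mean in 2 month replicates 1, 2 and 3, and −0.02, −0.09 and −0.54 in the 8 month replicates. The 9 tested of 13 skeletal muscle markers averaged 0.20, 1.01 and −0.32 at 2 months and −0.30, −0.21 and −0.38 at 8 months. The 4 tested of 6 red blood cell genes lay between 0.22 and 1.29 at 2 months and between −0.65 and −0.59 at 8 months. The markers of scleral or choroidal fibroblasts were at 0.36 in 2 month replicate 2 and between −0.13 and −0.02 in the other 5 samples, but only 7 of 14 could be tested, and Dpt, Clec3b, Mfap5, Aspn, Twist1, Twist2 and Gsn stayed near background in all samples. The 10 tested of 13 pericyte and smooth muscle markers averaged −0.051, 0.19 and 0.13 at 2 months. At 8 months they averaged −0.024, −0.10 and −0.15. Of the 10, 8 had negative changes, where 49.8% of all genes did. In 3 (30%, against 7.59% of all genes), Vtn, Abcc9 and Des, every 2 month sample was higher than every 8 month sample. Abcc9 (7.14 to 7.30) and Des (7.20 to 7.46) lay close to the array median. The 15 tested of 17 lens genes averaged −0.086, 0.0093 and 0.44 at 2 months and 0.21, −0.32 and −0.25 at 8 months, 13 of the 15 with negative changes, so that they peaked in 2 month replicate 3 and not in replicate 2. In contrast, 2 month replicate 2 was the highest and 8 month replicate 3 the lowest sample for pigment, muscle, fibroblast and pericyte markers. Several tested markers of these lists stayed near background, among them Tyr (7.16 to 7.24), Slc45a2 (7.18 to 7.26), Slc4a1 (7.18 to 7.25) and Actn3 (7.20 to 7.27). Trpm1, Rgr and Pvalb are also made by retinal neurons or glia. The levels of 11 Müller glia and astrocyte genes stayed within −0.07 and 0.06. Those of 14 endothelial genes lay at −0.17 in 2 month replicate 1 and between −0.02 and 0.07 in the others. The 11 tested of 12 microglia and macrophage genes averaged 0.075, 0.13 and −0.17 at 2 months. At 8 months they averaged 0.024, −0.059 and 0.0053, so that this list also peaked in 2 month replicate 2. The 11 tested of 12 cone and rod genes averaged 0.69, 0.67 and 0.27 at 2 months and −0.36, −0.33 and −0.94 at 8 months. The low in 8 month replicate 3 was therefore not confined to markers of neighbouring tissues. In such bulk samples, fewer cells of a type and less RNA per cell cannot be told apart.

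No matrix gene passed the test of age. By limma with Benjamini-Hochberg adjustment over all 12046 genes, 0 of the 45 tested members were higher and 0 lower at 8 months, where 0.158% and 0.0664% of all genes were called higher and lower, or 0.224% in either direction. At an unadjusted p below 0.05, 0 members were higher and 8 lower, against 5.1% and 5.34% of all genes, or 10.4% in either direction. The smallest adjusted p was 0.236, for Col17a1. In 8 members, or 17.8%, the 3 values of 1 age lay above the 3 of the other, where 15% of all tested genes did so, and in all 8 it was the 2 month samples that were higher, where 7.59% of all genes were lower and 7.45% higher at 8 months. These 8 were Col17a1, Col8a2, Col9a2, Col2a1, Mmp2, Col4a4, Lama2 and Col4a2. The separation refers to the brightest kept probe of each gene. At least 1 dimmer probe of each of Col17a1, Col8a2 and Col2a1 overlapped.

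More of the tested members had changes below 0 than above, and the excess varied with the samples and genes included. Of the 45, 29 had a negative change (64.4%, against 49.8% of all genes) and the median was −0.079, against 0.00048 over all genes. With no filter, 41 of 65 were negative (63.1%, against 49.9% of all genes) and the median was −0.014. With the stricter filter, at the 75th percentile, 16 of 19 were negative (84.2%, against 49.7% of all genes) and the median was −0.15. Of the 21 members whose mean lay 0.5 or more above the array median, 17 were negative (81.0%, against 49.7% of such genes). Without 2 month replicate 2 the count was 23 of 45 (51.1%, against 50.2% of all genes) with a median of −0.013. Without 2 month replicate 1 it was 37 of 45 (82.2%, against 49.6%). With all samples, 8 members were lower at an unadjusted p below 0.05 (limma), as were 5.34% of all genes. Leaving out 2 month replicate 2 reduced the 8 to 3 (4.50% of all genes). Omitting 8 month replicate 1 (4.22%) or 8 month replicate 3 (4.20%) also gave 3. The count was 6 if 2 month replicate 1 was dropped (4.92%). It stayed at 8 if 8 month replicate 2 (4.89%) or 2 month replicate 3 (6.13%) was dropped, and in the latter fit 2 members were higher. With the pigment marker level as a covariate 19 of 45 were negative (42.2%, against 50.4% of all genes). With the muscle marker level 20 of 45 were (44.4%, against 49.9%). Both marker levels averaged higher at 2 than at 8 months, so these fits cannot fully separate marker level from age.

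**Figure D1:**
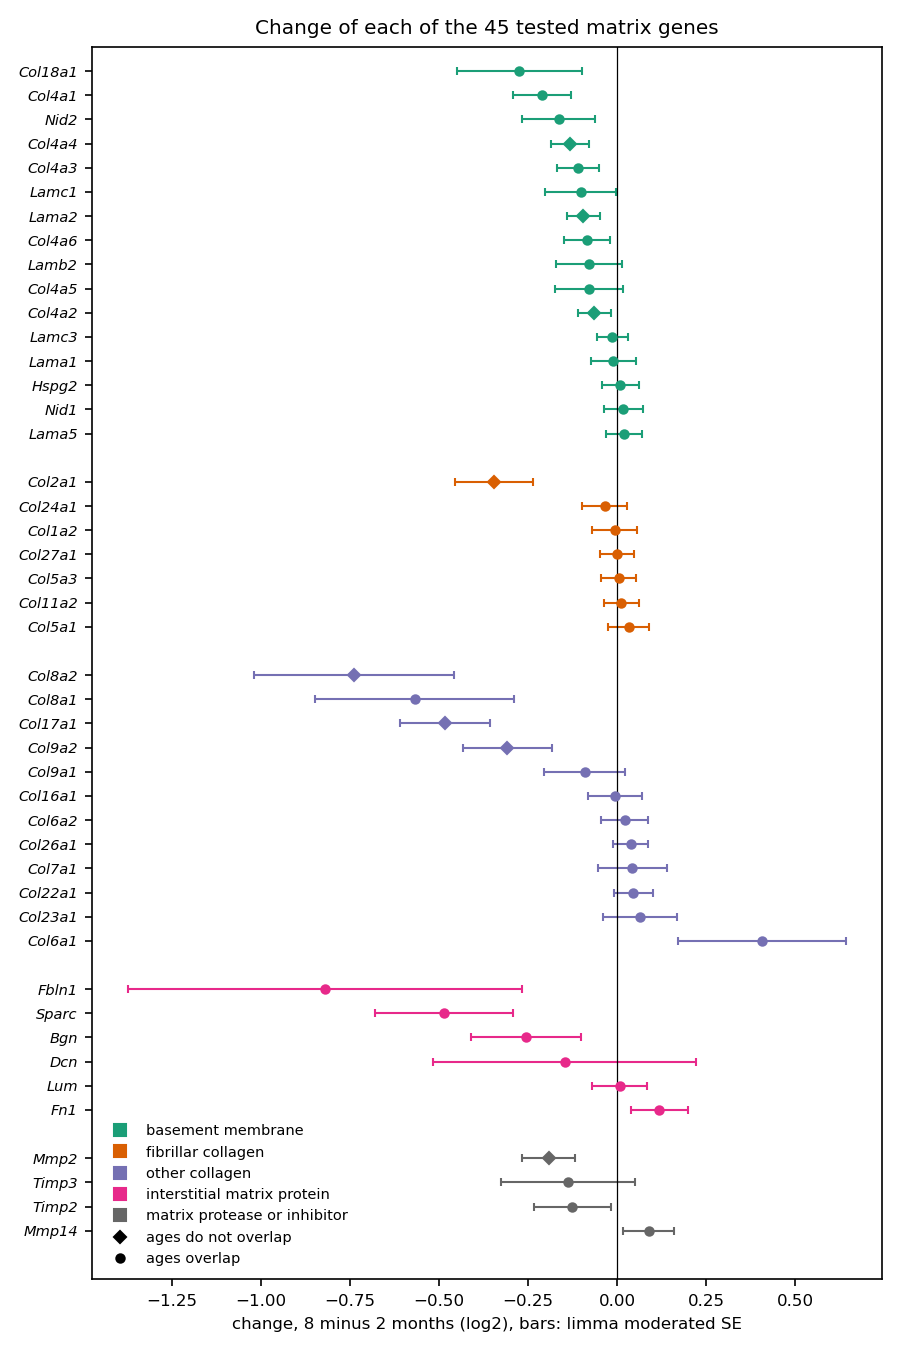
Change of each of the 45 tested matrix genes between 2 and 8 months, as 8 minus 2 months on the log2 scale (horizontal axis), with limma's moderated standard error as bars; colours give the class of gene and diamonds mark the 8 genes whose ages did not overlap. All 8 diamonds lie left of 0, and Fbln1 and Dcn have the widest bars of the genes shown.

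Among basement membrane genes, the 6 type IV collagen chains all had small negative changes. Col4a1, which with Col4a2 makes the heterotrimer found in nearly all basement membranes, measured 8.32, 8.53 and 8.62 at 2 months and 8.25, 8.35 and 8.25 at 8 months. The ages overlapped by 1 sample, and the change was −0.21 (SE 0.0818, limma adjusted p = 0.428). Col4a2 measured 8.25, 8.27 and 8.29 at 2 months and 8.24, 8.21 and 8.16 at 8 months, a change of −0.064 (SE 0.0460), and is given after its values were seen. The ages of Col4a2 did not overlap, but the step between the lowest 2 month and the highest 8 month sample was small. The starts of Col4a1 and Col4a2 lie 21 bases apart on chromosome 8 and on opposite strands (GRCm38.p6).

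Col4a3 and Col4a4, chains of a type IV network other than the common one, found in Bruch's membrane and in kidney, were dim. Col4a4 measured 7.35, 7.45 and 7.36 at 2 months and 7.23, 7.31 and 7.23 at 8 months, with no overlap and a change of −0.13 (SE 0.0531, limma adjusted p = 0.44). Col4a3 had a change of −0.11 (SE 0.0585) and its ages overlapped. Col4a5 and Col4a6, whose starts lie 1343 bases apart on the X chromosome, had changes of −0.079 (SE 0.0951) and −0.086 (SE 0.0643).

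The laminins, trimers of an alpha, a beta and a gamma chain that start the assembly of a basement membrane, gave no call. Lama2, the alpha chain of muscle and vessel basement membranes, measured 7.33, 7.27 and 7.25 at 2 months and 7.17, 7.20 and 7.20 at 8 months, a change of −0.095 (SE 0.0462, limma adjusted p = 0.563). Its ages did not overlap, but all 6 values lay within 0.16 of each other and close to the array median. Lamb2, the beta chain of retinal and synaptic laminins, had a change of −0.079 (SE 0.0920) and Lamc1, the common gamma chain, one of −0.10 (SE 0.0996). The other laminins tested, Lama1, Lama5 and Lamc3, had changes between −0.014 and 0.019.

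Col18a1, the proteoglycan collagen from which endostatin is cut and which the pigment epithelium and the inner limiting membrane hold, had the most negative change among the basement membrane genes. It measured 9.43, 10.04 and 9.51 at 2 months and 9.43, 9.58 and 9.14 at 8 months, and the change was −0.27 (SE 0.175, limma adjusted p = 0.69). The ages overlapped, with 2 month replicate 2 highest and 8 month replicate 3 lowest, as for pigment, muscle, fibroblast and pericyte markers. The change was −0.086 without 2 month replicate 2, −0.15 without 8 month replicate 3 and 0.11 (SE 0.1000) with the pigment marker level as a covariate. Nid2, which bridges laminin and type IV collagen, had the same highest and lowest samples and a change of −0.16 (SE 0.102). Its relative Nid1 and Hspg2, the gene of perlecan, had changes of 0.017 (SE 0.0536) and 0.0084 (SE 0.0525). In all, 13 of the 16 tested basement membrane genes had negative changes, where 49.8% of all genes did, with a median of −0.083. The median was −0.048 without 2 month replicate 2 and −0.0028 with the pigment covariate.

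Of the 11 fibrillar collagen genes, 7 could be tested, and 6 of these lay within 0.5 of the array median. Col2a1, the chain of cartilage and vitreous fibrils, was the exception. It measured 9.00, 9.35 and 9.05 at 2 months and 8.64, 8.93 and 8.80 at 8 months. Every 2 month sample was above every 8 month sample, with a change of −0.35 (SE 0.110, unadjusted p = 0.0154, limma adjusted p = 0.323), or a ratio of 1.27 between 2 and 8 months. Its other 2 probes had changes of −0.36 and −0.13, and in both the ages overlapped. The change was −0.24 without 2 month replicate 2, −0.22 (SE 0.14) with the pigment covariate and −0.20 (SE 0.11) with the muscle covariate.

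The other tested fibrillar genes had changes between −0.035 and 0.032. Col5a1, a chain that seeds collagen I fibrils, measured 7.53, 7.68 and 7.54 at 2 months and 7.60, 7.60 and 7.64 at 8 months, with overlapping ages and a change of 0.032 (SE 0.0571). Col24a1, a minor fibrillar chain, measured 7.20, 7.25 and 7.23 at 2 months and 7.11, 7.31 and 7.15 at 8 months, a change of −0.035 (SE 0.0634). Col1a2, a chain of the collagen I of sclera and bone, lay between 7.13 and 7.31. The median change of the 7 was 0.00048, with 4 positive and 3 negative.

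Set side by side, the basement membrane and the fibrillar genes gave no separation of the ages. The 16 basement membrane genes averaged −0.027, 0.13 and 0.029 relative to each gene's mean in 2 month replicates 1, 2 and 3, and −0.037, −0.012 and −0.080 at 8 months. The 7 fibrillar genes averaged −0.012, 0.091 and −0.0059 at 2 months and −0.051, 0.010 and −0.032 at 8 months. The difference, basement membrane minus fibrillar, was −0.015, 0.037 and 0.035 at 2 months and 0.014, −0.022 and −0.048 at 8 months, so that the ages overlapped. In both classes 2 month replicate 2 was the highest sample.

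**Figure D2:**
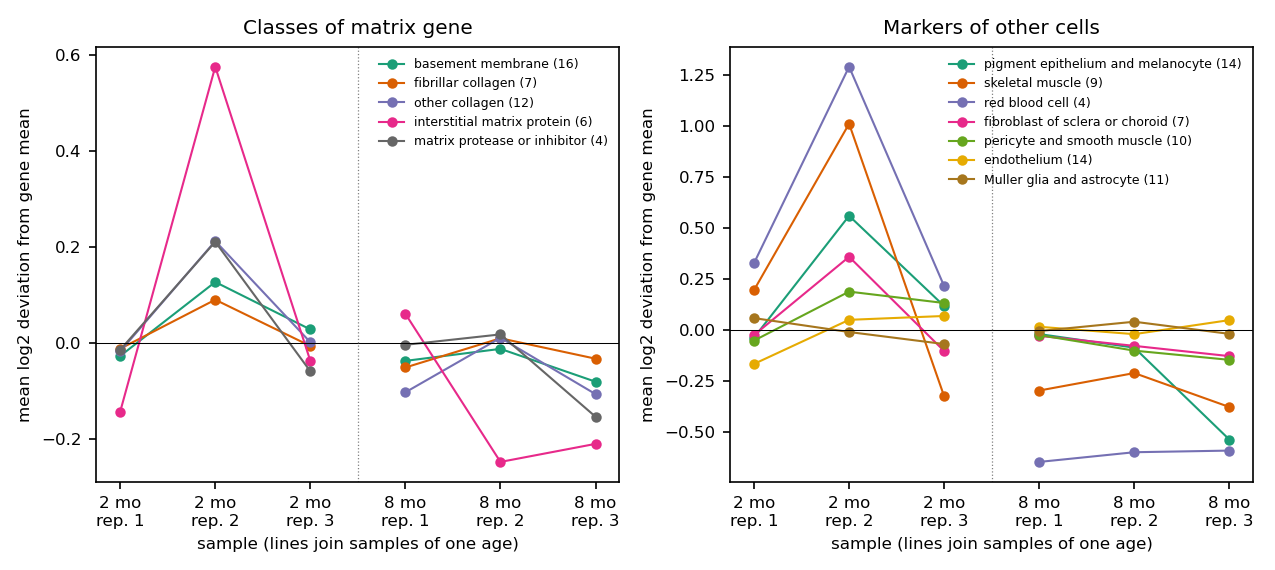
Mean log2 deviation of each class of matrix gene (left) and of marker lists of other cells (right) from the genes' means over 6 samples (vertical axis) in each sample (horizontal axis), with the number of tested genes in brackets; lines join samples of 1 age. All 5 matrix classes peak in 2 month replicate 2, at 0.091 to 0.58, as do pigment, muscle, red blood cell, fibroblast and pericyte markers. Endothelial and Müller glia markers do not. Microglia and macrophage markers, not drawn, also peaked in that sample.

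Type VIII collagen, a short-chain collagen that forms hexagonal lattices under the corneal endothelium and around vessels, gave the widest differences among the collagens. Col8a2 measured 9.82, 10.29 and 9.64 at 2 months and 9.53, 9.48 and 8.54 at 8 months. The ages did not overlap, the lowest value by far being 8 month replicate 3, and the change was −0.74 (SE 0.281, limma adjusted p = 0.416), a ratio of 1.67 between 2 and 8 months. Its 2 dimmer probes had changes of −0.25, without overlap of the ages, and −0.071, with overlap. Without 8 month replicate 3 the change was −0.42 (SE 0.179).

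Col8a1, given after its values were seen, measured 9.74, 10.12 and 9.20 at 2 months and 9.26, 9.47 and 8.62 at 8 months, with overlapping ages and a change of −0.57 (SE 0.278, limma adjusted p = 0.567). Its second probe had a change of −0.64. Without 2 month replicate 2 the change was −0.35 (SE 0.266), and without 8 month replicate 3 it was −0.32 (SE 0.251). Both chains had the same highest and lowest samples as the pigment gene Dct, which measured 10.44, 12.28 and 10.95 at 2 months and 10.41, 10.23 and 9.13 at 8 months. With the pigment marker level as a covariate the change of Col8a2 was −0.14 (SE 0.181) and that of Col8a1 −0.060 (SE 0.255). Without both 2 month replicate 2 and 8 month replicate 3 they were −0.23 (SE 0.0846) and −0.10 (SE 0.185).

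Col17a1, the transmembrane collagen of hemidesmosomes, which anchor epithelia to their basement membrane, measured 8.20, 8.35 and 7.96 at 2 months and 7.55, 7.91 and 7.61 at 8 months. The ages did not overlap, though 2 month replicate 3 and 8 month replicate 2 lay close together. The change was −0.48 (SE 0.126, unadjusted p = 0.0059, limma adjusted p = 0.236), a ratio of 1.40. Its other 2 probes had changes of −0.53, without overlap of the ages, and −0.17, with overlap. Without 2 month replicate 2 the change was −0.39 (SE 0.126), with the pigment covariate −0.36 (SE 0.164) and with the muscle covariate −0.30 (SE 0.117).

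Col9a2, a chain of the collagen IX that decorates collagen II fibrils, measured 7.68, 8.09 and 7.59 at 2 months and 7.42, 7.51 and 7.51 at 8 months. The ages did not overlap, with 2 month replicate 2 well above the rest, and the change was −0.31 (SE 0.124, limma adjusted p = 0.445). It was −0.16 (SE 0.0622) without that sample and −0.083 (SE 0.0742) with the muscle covariate. Its partner Col9a1 had a change of −0.091 (SE 0.114).

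Col6a1, a chain of the beaded-filament collagen of vessels and connective tissue, went the other way, and is given after its values were seen. It measured 8.18, 8.66 and 9.01 at 2 months and 8.89, 8.76 and 9.42 at 8 months, a change of 0.41 (SE 0.236, limma adjusted p = 0.658). The ages overlapped, and 2 month replicate 1 was the lowest sample and 8 month replicate 3 the highest. A second probe had a change of 0.22, and the change was 0.21 (SE 0.223) without 8 month replicate 3 and 0.19 (SE 0.208) without 2 month replicate 1. Its partner chain Col6a2 was dim, between 7.20 and 7.42, with a change of 0.020.

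Col23a1, a transmembrane collagen, measured 9.50, 9.52 and 9.61 at 2 months and 9.42, 9.83 and 9.56 at 8 months, a change of 0.064 (SE 0.103) with overlapping ages. The remaining collagens tested, Col7a1, Col16a1, Col22a1 and Col26a1, had changes between −0.0057 and 0.045. Over the 12 tested collagens outside the basement membrane and fibrillar classes, 6 changes were negative and 6 positive, with a median of 0.0074.

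**Figure D3:**
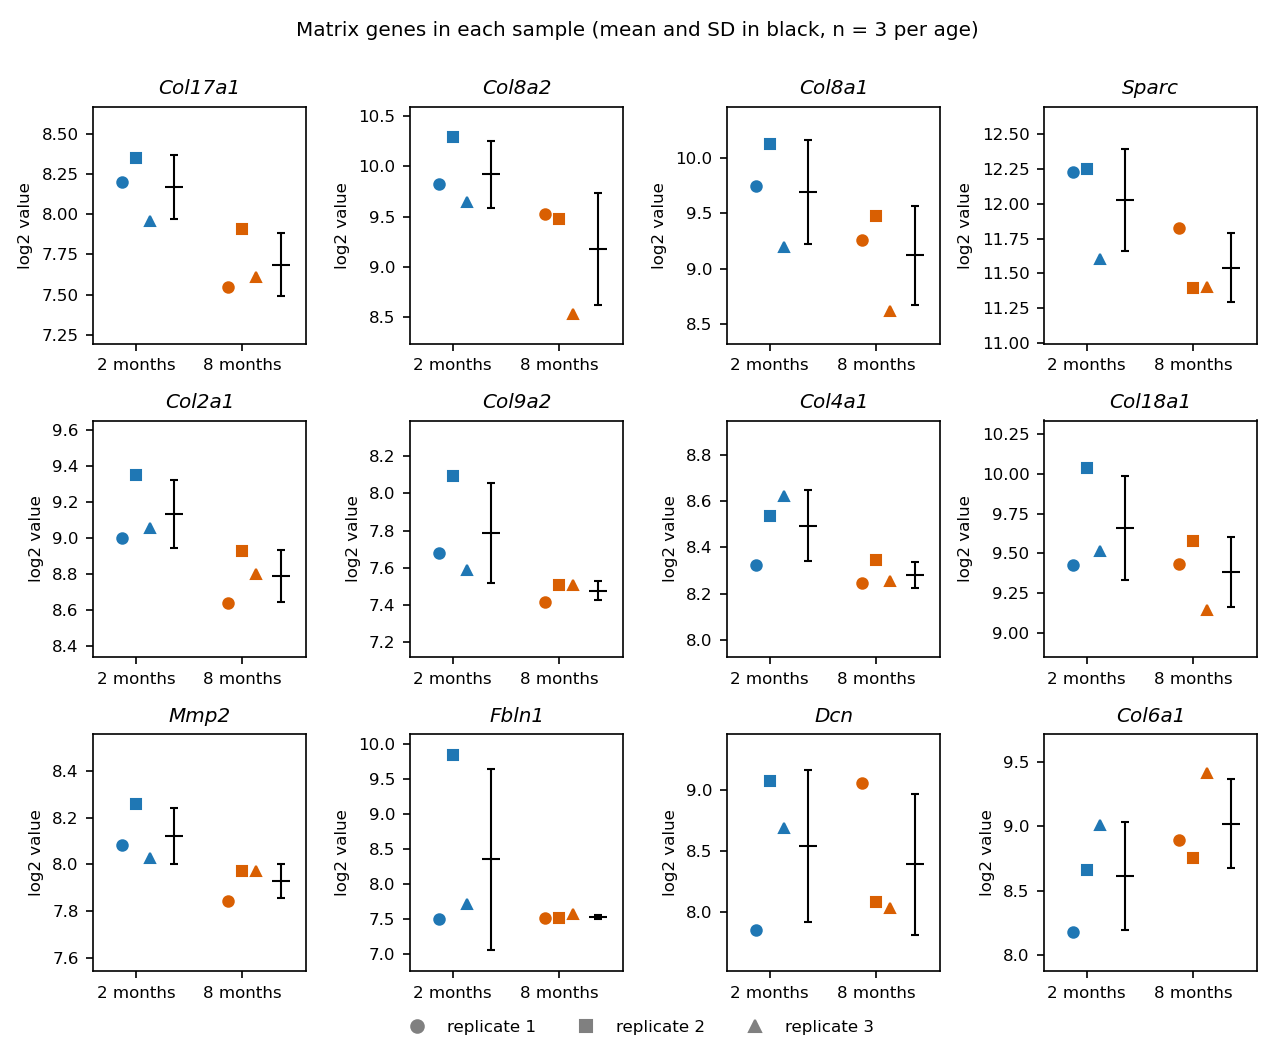
Log2 value of 12 matrix genes in each sample at 2 months (blue) and 8 months (orange), with the shape of a point giving the replicate and the mean and SD of 3 samples in black; each panel has its own vertical axis. Fbln1 reaches 9.84 in 2 month replicate 2 and lies between 7.50 and 7.71 in the other 5 samples, while Col17a1, Col8a2, Col2a1, Col9a2 and Mmp2 have no overlap between ages.

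Among the interstitial matrix proteins, Sparc, a secreted glycoprotein that binds collagens and is made by glia and endothelium, measured 12.23, 12.25 and 11.61 at 2 months and 11.83, 11.40 and 11.40 at 8 months. The ages overlapped, since 2 month replicate 3 was below 8 month replicate 1. The change was −0.49 (SE 0.193, unadjusted p = 0.0386, limma adjusted p = 0.436), a ratio of 1.40. Its other 2 probes had changes of −0.49, without overlap of the ages, and −0.38, with overlap. The change was −0.38 (SE 0.206) without 2 month replicate 2, and −0.30 and −0.23 with the pigment and the muscle covariate.

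Fbln1, a fibulin of elastic fibres and basement membranes, was raised in a single sample. It measured 7.50, 9.84 and 7.71 at 2 months and 7.51, 7.52 and 7.56 at 8 months, and all 4 kept probes were highest in 2 month replicate 2. The change was −0.82 (SE 0.553, limma adjusted p = 0.705) with that sample and −0.076 without it. Of the 7 tested fibroblast markers 5 were also highest there, Mfap4 most clearly, at 8.53 in that sample and 7.12 to 7.23 in the other 5. The other 2 were not: Cygb, at 11.7 to 12.1, was lowest in that sample, and Islr was highest in 2 month replicate 3. Bgn, the small proteoglycan biglycan, was also highest there, measuring 8.03, 8.58 and 8.00 at 2 months and 8.08, 7.85 and 7.91 at 8 months. Its change was −0.26 (SE 0.154) with all samples and −0.066 without 2 month replicate 2.

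Dcn, the gene of decorin, varied within each age. It measured 7.85, 9.08 and 8.69 at 2 months and 9.06, 8.08 and 8.03 at 8 months, a change of −0.15 (SE 0.368) with wide overlap, and its second probe, at 7.22 to 7.75, had a change of −0.089. Without 2 month replicate 2 the change was 0.12 (SE 0.363). Fn1, the cell adhesion protein fibronectin, had a change of 0.12 (SE 0.0804). Lum, the corneal and scleral proteoglycan lumican, lay between 7.11 and 7.35. Of the 6 tested genes of this class 4 had negative changes, with a median of −0.20, which was −0.00083 without 2 month replicate 2, 0.079 with the pigment covariate and 0.045 with the muscle covariate.

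Of the proteases, Mmp2, a gelatinase that cuts type IV and denatured collagens, measured 8.08, 8.26 and 8.03 at 2 months and 7.84, 7.97 and 7.97 at 8 months. The ages did not overlap, and the change was −0.19 (SE 0.0738, limma adjusted p = 0.42). It was −0.13 without 2 month replicate 2 and −0.090 (SE 0.0719) with the muscle covariate. Mmp14, the membrane protease that activates Mmp2, measured 9.18, 9.34 and 9.26 at 2 months and 9.34, 9.47 and 9.25 at 8 months, an overlapping pair with a change of 0.089 (SE 0.0714).

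The inhibitors gave no difference beyond the spread. Timp2, an inhibitor that also helps to activate Mmp2, measured 11.55, 11.78 and 11.34 at 2 months and 11.45, 11.34 and 11.50 at 8 months, a change of −0.13 (SE 0.108). Timp3, the matrix-bound inhibitor of Bruch's membrane, measured 11.70, 12.04 and 11.70 at 2 months and 11.93, 11.87 and 11.23 at 8 months, a change of −0.14 (SE 0.188). The lowest value, in 8 month replicate 3, set the sign: without that sample the change was 0.082, and a dimmer probe of Timp3 had a change of 0.25.

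The highest values of the matrix genes were gathered in 1 sample. Of the 45 tested members, 25 (55.6%) were highest in 2 month replicate 2, where 19.3% of all tested genes were. Of these, 8 members (17.8% of the 45, against 4.81% of all genes) were lowest in 8 month replicate 3. They were Col8a1, Col8a2, Col18a1, Col4a3, Col4a4, Nid2, Lamc1 and Timp3. The averages of pigment, muscle, fibroblast and pericyte markers had the same highest and lowest samples. That of cone and rod genes was also lowest in 8 month replicate 3, but highest in 2 month replicate 1. The spread of members over the 6 samples had a median range of 0.28, against 0.23 for all genes, and 5 members (Fbln1, Col8a2, Col8a1, Dcn and Col6a1) had a range over 1, which 1.15% of all genes had. A gene's extremes in these 2 samples were measured. The part of pigment epithelium or muscle in them was not tested beyond the covariate fits given above, and that of sclera was not tested. The pigment level averaged 0.21 at 2 and −0.21 at 8 months, and the muscle level 0.29 and −0.29. The covariate fits therefore cannot fully separate marker level from age.

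**Figure D4:**
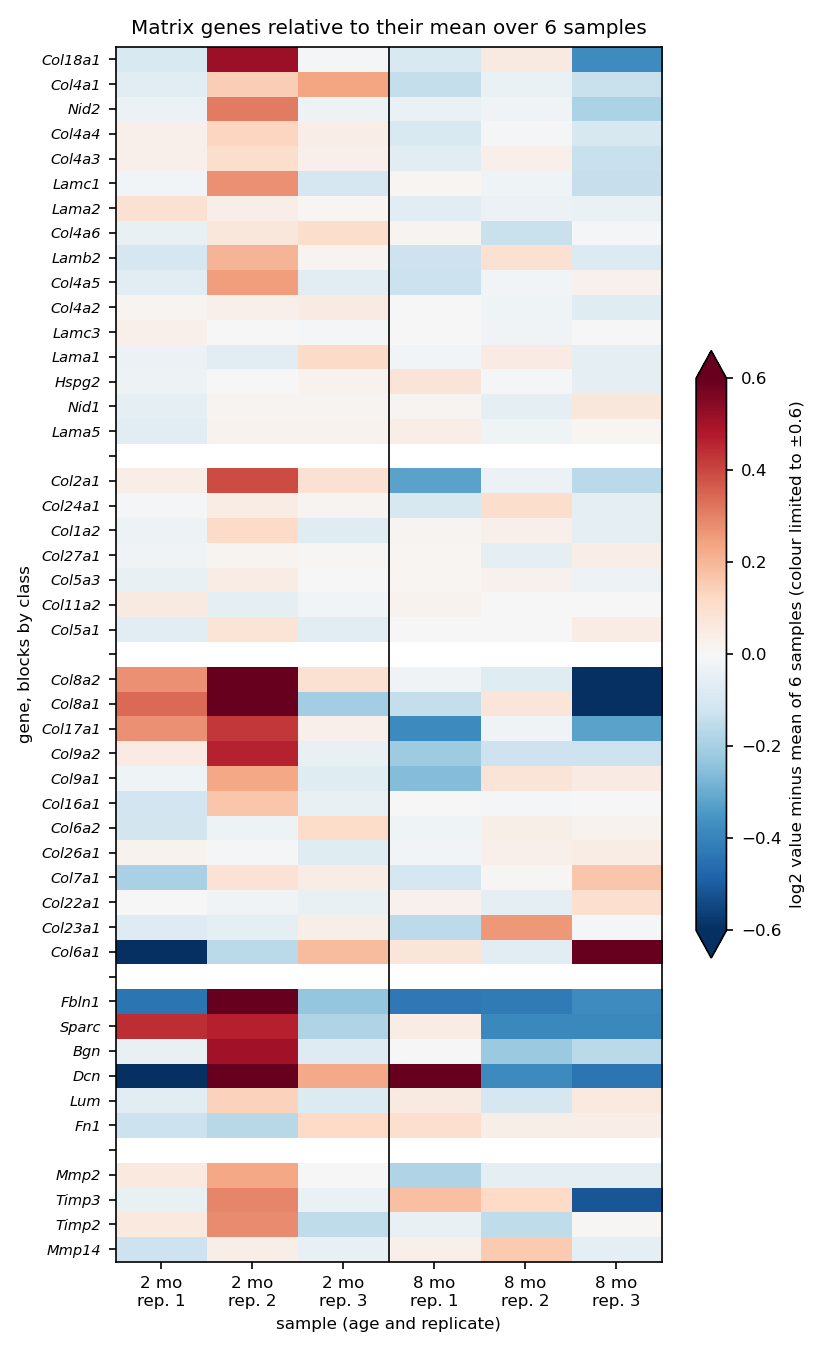
Log2 value of each of the 45 tested matrix genes minus its mean over 6 samples (colour, limited to ±0.6) in each sample (columns), with genes in rows by class and, within a class, by their change. The column of 2 month replicate 2 is mostly red, holding the highest value of 25 genes, and Col8a2, Col8a1 and Timp3 are deepest blue in 8 month replicate 3.

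The 20 members that did not pass the filter stayed near background, with mean values of 7.09 to 7.18 at their brightest probe. They include the main fibrillar chains of sclera and skin, Col1a1 (7.14 to 7.31 over the 6 samples), Col3a1 (7.07 to 7.21) and Col5a2 (7.09 to 7.17), with Col11a1. The basement membrane genes among them are Col15a1, Lama4, Lamb1 and Lamb3. The other collagens are Col6a4, Col6a5, Col6a6, Col9a3, Col10a1, Col13a1, Col14a1, Col19a1, Col25a1 and Col28a1, and the last 2 are Postn, a matricellular protein of fibrosis (7.08 to 7.15), and Lox, which crosslinks collagen (7.12 to 7.25). Probes can fail, so a value near background does not show that a gene is silent.

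Other genes of matrix assembly and recognition gave no call either. Of 15 tested genes of collagen folding, processing and crosslinking, 0 were called, 11 had negative changes and the median was −0.027. Serpinh1, the chaperone of newly made procollagen, measured 9.68, 9.80 and 9.60 at 2 months and 9.28, 9.38 and 9.25 at 8 months, with no overlap and a change of −0.39 (SE 0.0676, unadjusted p = 0.000566, limma adjusted p = 0.103). Plod3, a collagen lysyl hydroxylase, had a change of −0.16 (SE 0.0753). Of 17 tested receptors 0 were called, 8 were positive and 9 negative. Dag1, the laminin receptor dystroglycan, had a change of 0.26 (SE 0.0930) and Itga3, an integrin chain for laminins, one of −0.20 (SE 0.0772), both without overlap.

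Of 18 other tested proteoglycans and glycoproteins 0 were called, with 5 positive and 13 negative. Vtn, vitronectin, which is also in the list of pericyte markers, measured 8.24, 8.78 and 8.37 at 2 months and 7.74, 7.61 and 7.60 at 8 months, a change of −0.81 (SE 0.130, unadjusted p = 0.000361, limma adjusted p = 0.087). Tnc, tenascin C, a glycoprotein of remodelling matrix, went from 8.575, 8.43 and 8.59 to 8.70, 8.76 and 8.76, a change of 0.21 (SE 0.0587, limma adjusted p = 0.276). Of 14 other metalloproteinases and inhibitors 0 were called, with Mmp24 at a change of 0.37 (SE 0.115) and Timp1, an inhibitor induced in injured tissue, at 0.25 (SE 0.131). Of 13 Tgf-beta and fibrosis regulators 0 were called, with Tgfb1 at 0.14 (SE 0.0504) and Ccn2, connective tissue growth factor, at −0.30 (SE 0.162).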

How the data were processed

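The members, gene classes and lists were chosen with earlier results of these data known. The deposited table holds 45281 probes for 6 samples; per the labels' protocols, biotinylated cRNA was hybridised to Illumina arrays. The authors deposited values that range from 6.98 to 14.5 and were taken as log2; a variance-stabilising transform close to log2 cannot be told apart from it. The sorted columns differ by at most 0.00307, so that the arrays share 1 distribution, as quantile normalization leaves it. Which software and background correction the authors used is not given in the sources used here.

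Groups and replicate numbers came from the sample titles, which number the 2 month samples 1, 2 and 3 where the descriptions have 1, 1 and 2; they were counted as 3 samples, as the design text has it. Genes were named through GEO's probe annotation, with symbols checked by gene number against RefSeq of GRCm38.p6 (0 updated, 78 named probes without a match). The filter kept 22458 probes, those above the 50th percentile of their own array on 3 or more arrays, and the kept probe with the highest mean stood for a gene; for 1 member, Col26a1, a brighter probe was not kept. Of 17 members with several kept probes, the changes had 1 sign in 14. Changes are 8 minus 2 months, fitted with limma 3.58.1 in R 4.3.3 (lmFit, eBayes, no covariate) with Benjamini-Hochberg adjustment over 12046 genes at a threshold of 0.05, with 4 residual and 3.311 prior degrees of freedom. SE is limma's moderated standard error. The number of arrays limits the precision. The test was checked on simulated data.

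Members given sample by sample are, per class, the 3 with the smallest p and the 2 brightest, and of each other pathway list the 2 genes with the smallest p; Col4a2, Col8a1, Col6a1 and the marker genes given beside results were chosen after their values were seen. Alternatives were median centring, cyclic loess, no filter and one at the 75th percentile, the mean of kept probes, eBayes with trend and robust, each sample left out, the replicate number as a block, and pigment or muscle marker levels as covariates.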

Additional observations from a re-analysis of the deposited data

How the results depend on the processing

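No member was called higher under any of the 16 alternatives, and 1 was called lower under 1 of them, the fit with the title's replicate number as a block: Col8a1, with a change of −0.57 (limma adjusted p = 0.0379). The replicate numbers are not known to pair samples, and for 2 months they differ between titles and descriptions: deviations of equally numbered samples correlated at 0.024, 0.14 and 0.16, although each sample correlated best with its own number. The median change of the basement membrane class was −0.0028 with the pigment covariate, −0.011 with the muscle covariate and −0.013 without 2 month replicate 2 and 8 month replicate 3 together, an alternative chosen after seeing the data; those of the proteases and inhibitors were 0.079, 0.049 and 0.064, and those of the interstitial proteins 0.079, 0.045 and 0.00045. With the stricter filter, 19 members were tested, and the medians were −0.35 for the 1 fibrillar gene left and −0.29 for 6 other collagens. Leaving out 1 sample gave 0 members called, and class medians from −0.13 to −0.048 for basement membrane, −0.018 to 0.016 for fibrillar, −0.055 to 0.027 for other collagens, −0.40 to −0.00083 for interstitial proteins and −0.21 to −0.022 for proteases and inhibitors.

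Signs turned for 8 of the 19 members given sample by sample under the rule. With the pigment covariate the changes were 0.011 for Bgn, 0.11 for Col18a1, 0.0012 for Col24a1, 0.53 for Dcn, 0.12 for Fbln1 and 0.27 for Timp3. With the muscle covariate they were 0.0062 for Bgn, 0.084 for Dcn, 0.17 for Fbln1, 0.052 for Timp2 and 0.047 for Timp3. Without 2 month replicate 2 and 8 month replicate 3 they were 0.034 for Col18a1, 0.30 for Dcn and 0.19 for Timp3. The mean of kept probes gave 0.054 for Timp3. Leaving out 1 sample gave ranges of −0.39 to −0.086 for Col18a1, −0.050 to 0.16 for Col23a1, −0.096 to 0.0042 for Col24a1, −0.49 to 0.12 for Dcn and −0.26 to 0.082 for Timp3. Why these signs turned was not tested. The 24 tested members within 0.5 of the array median can show little change at this signal over background. Over all genes, 19 were called higher and 8 lower, against 5 and 2 with no filter, 38 and 35 with the stricter filter, 13 and 6 with the mean of kept probes, 52 and 52 with trend and robust, 14 and 18 with the block and 2 and 0 with either covariate, and from 2 to 12 higher and 0 to 19 lower with 1 sample left out.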
